A study of Mus musculus with 3 samples.

Results

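Small pre-B cells that recombine their light chain genes were studied in 3 droplet single-cell RNA libraries of mouse bone marrow. A cell was taken as a member from its own transcript counts (UMIs, unique molecular identifiers, each standing for 1 captured mRNA). It had at least 1 UMI of Cd79a and of Ebf1, at least 1 UMI of Rag1 or Rag2, and none of Igll1, Vpreb1 or Ighd. This rule found 2574 cells among 31292 that had at least 200 genes and at most 5% mitochondrial UMIs, with 750 in the Control library, 912 in the IR library and 912 in the IR+CBD library. Members were thus chosen by the measured UMIs of these 7 genes, whose levels are given as a description.

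The Control library came from mice that were not irradiated. The IR library came from mice given 6 Gy of gamma radiation from a Cobalt-60 source and injected with solvent, and the IR+CBD library from mice given the same dose together with cannabidiol (CBD, a non-intoxicating cannabinoid) at 50 mg/kg, injected intraperitoneally in soybean oil with DMSO before and after the exposure. Femoral marrow of male C57BL/6 mice was taken 14 days after irradiation. Each library pooled 3 mice, whose lineage-negative Kit-positive, lineage-negative Kit-negative and lineage-positive cells had been sorted and remixed at 5:4:1, so a share of cells is a share of that mixture and not of the marrow. There was 1 library per condition, which leaves no replicate check between conditions, and every interval given is at the 95% level and covers counting error only.

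In the B lineage, an assembled heavy chain first pairs with the surrogate light chain encoded by Igll1 and Vpreb1, and this pre-B cell receptor drives a burst of division. Small pre-B cells then leave the cycle, silence the surrogate light chain and express the Rag1 and Rag2 recombinase again to join a V to a J segment at the kappa locus and, when this fails, at the lambda loci. The unrearranged constant regions are themselves transcribed before joining, so a constant region transcript does not tell a rearranged allele from a germline one. Ighd appears later, when the finished receptor reaches the surface of the maturing B cell.

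Members were shallow cells. Their median depth was 3376 UMIs in the Control library, 3355 in the IR library and 3068.5 in the IR+CBD library, against medians of 12479.5, 14211 and 12502 UMIs over all cells passing the filters. Pairs of libraries shared between 26 and 34 cell barcodes among the cells passing the filters, and 0 among the members. Ambient RNA was gauged in neutrophils (at least 20 UMIs of S100a8 and 5 of Ngp or Ltf), with a median of 10647 to 12061 UMIs. Of these, 8.44% to 11.01% had a Cd79a UMI and 2.04% to 2.92% a Rag1 UMI, and 10, 21 and 15 neutrophils met the whole rule in the 3 libraries.

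The label was checked against genes that the rule did not use. Cd79b, the partner of Cd79a in receptor signaling, was detected in 96.5% to 98.9% of members, against 11.9% to 16.8% of the deeper neutrophils. Vpreb3, a chaperone of the pre-B stage, was detected in 96.8% to 98.8% of members. Pax5, which commits cells to the B lineage, was found in 83.3% to 85.1% of them. Il2ra (CD25) and Cd2, surface markers of small pre-B cells, were detected in 30.2% to 33.8% and 33.9% to 36.2% of members, against 1.02% to 1.87% and 1.95% to 2.17% of neutrophils. Ms4a1 (CD20), which rises on immature B cells, was found in 9.47% to 11.2% of members. These markers went with a B lineage identity, while Il2ra and Cd2, those of the small pre-B stage, were detected in a minority of members. Neutrophils were the only other cells in this check, so it does not tell members from other B lineage stages.

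The members were not all single small cells. Between 553 and 712 cells per library, 73.7% to 78.1% of the members, had fewer than 5000 UMIs, and Mki67, a marker of cycling cells, was detected in 4.52% to 6.91% of them. Between 5000 and 8000 UMIs there were 83 to 96 members per library, and Mki67 was detected in 56.6% to 72.9%. The members with 15000 UMIs or more were 58, 71 and 63 cells, but they held 41.7%, 45.5% and 40.4% of all UMIs of the members. Of these cells, 46, 57 and 52 were predicted doublets, droplets that hold more than 1 cell. Their Cd79a level was 167, 196 and 233 CPM (UMIs of a gene per 1000000 UMIs summed over the cells named), against 2189, 2368 and 2130 CPM in the members under 5000 UMIs. Elane, a neutrophil granule protease, stood at 1561, 1220 and 1709 CPM in the deepest members and at 93.3 to 163 CPM in the shallowest. The 12 neutrophil and granule genes summed to 17358, 17664 and 16402 CPM over all members and to 5105, 3035 and 3012 CPM without the predicted doublets. Sums over all members therefore mixed small pre-B transcripts with those of other cells, and removing the predicted doublets left 689, 823 and 825 members.

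**Figure D1:**
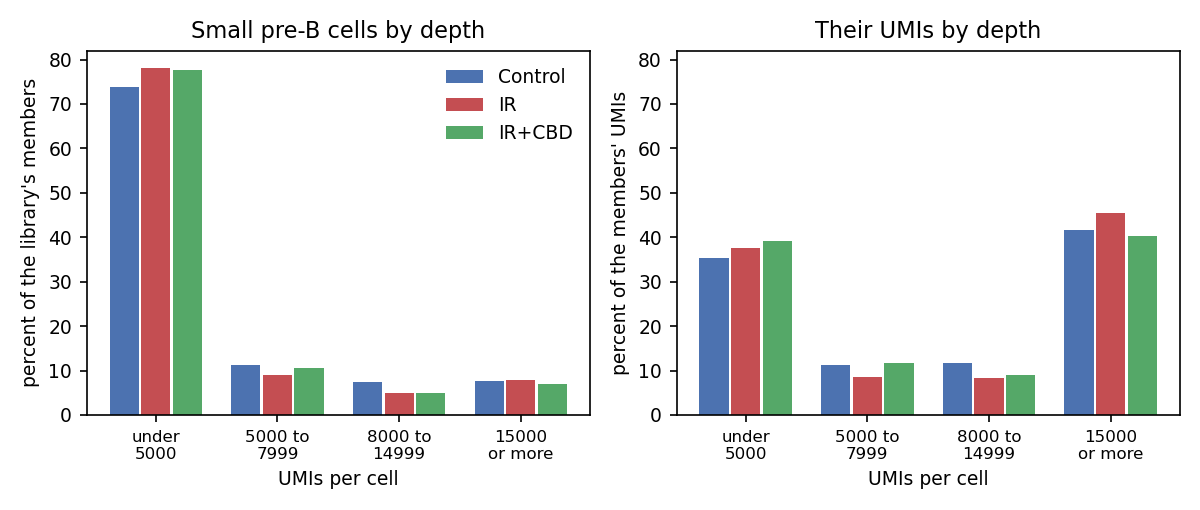
Percent of the members (left) and percent of the members' UMIs (right) by the number of UMIs per cell, for each library. Cells under 5000 UMIs made up 73.7% to 78.1% of members but held 35.4% to 39.1% of their UMIs, while the 58 to 71 cells of 15000 UMIs or more held 40.4% to 45.5%.

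Members made up 7.03% (interval 6.55 to 7.53) of all cells in the Control library, 8.82% (8.28 to 9.38) in the IR library and 8.88% (8.33 to 9.44) in the IR+CBD library. The IR share was 1.25 times the Control share (1.14 to 1.38), and the IR+CBD share was 1.01 times the IR share (0.918 to 1.11). Among cells with a Cd79a and an Ebf1 UMI, members were 20.5%, 21.7% and 25.2%. On that denominator the IR to Control ratio was 1.06 (0.962 to 1.17) and the IR+CBD to IR ratio 1.16 (1.06 to 1.27). The position of the IR+CBD library thus depended on the denominator. The preceding stage, cells of the same lineage that still had an Igll1 or Vpreb1 UMI and lacked Ighd (surrogate light chain positive cells), numbered 966, 1047 and 558. Its share of all cells in the IR+CBD library was 0.537 times that in the IR library (0.483 to 0.595). Cells that met the member rule but for having no Rag UMI (Rag-negative cells) numbered 1276, 1520 and 1519, with an IR+CBD to IR ratio of 1.01 (0.937 to 1.08) on all cells. Since each library is a fixed mixture of 3 sorted fractions, a share falls when another cell type of the mixture rises.

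**Figure D2:**
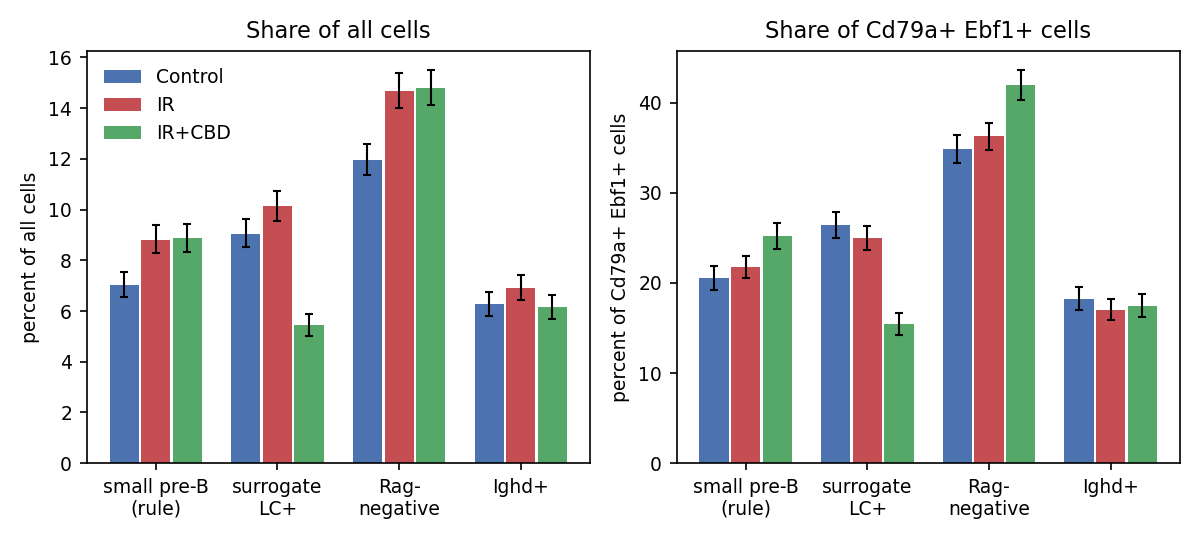
Percent of all cells passing the filters (left) and of cells with a Cd79a and an Ebf1 UMI (right) that fell in each class, by library. Bars are shares and error bars exact binomial intervals of counting error. Small pre-B cells were 7.03%, 8.82% and 8.88% of all cells, and the surrogate light chain positive class was lowest in the IR+CBD library.

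The Rag genes were thinly sampled, with a median of 1 Rag1 UMI per member, while the median member held 27 to 30 UMIs of Ebf1 and 6 to 7 of Cd79a. Rag1 was detected in 89.2%, 90.9% and 90.4% of members and Rag2 in 18.5%, 18.4% and 16.7%. A single Rag UMI admitted 438, 534 and 530 members, and 58, 85 and 64 members had UMIs of both genes. Just outside the rule, 48, 72 and 40 cells were kept out by 1 surrogate light chain UMI and 86, 167 and 153 by 1 Ighd UMI. The Rag-negative class can therefore hold small pre-B cells whose Rag transcripts were not captured.

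The lambda constant regions are shown because the separate counts of Iglc1, Iglc2 and Iglc3 depend on telling these genes apart. In the GENCODE M21 annotation (build GRCm38), Igkc lies at chr6:70726435-70726966 on the plus strand. Iglc1 lies at chr16:19061618-19062071, Iglc2 at chr16:19198396-19200351 and Iglc3 at chr16:19065230-19065681, all on the minus strand. From each annotated constant transcript 90 bases are printed, starting at its first cagcccaag. They are all in coding exon sequence and run in the transcript's direction, with capitals at positions where the 3 genes are not all alike.
Iglc1: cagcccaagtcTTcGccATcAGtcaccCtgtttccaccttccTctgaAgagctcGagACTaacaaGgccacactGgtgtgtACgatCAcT
Iglc2: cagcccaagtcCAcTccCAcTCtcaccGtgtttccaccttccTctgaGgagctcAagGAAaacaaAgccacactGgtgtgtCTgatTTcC
Iglc3: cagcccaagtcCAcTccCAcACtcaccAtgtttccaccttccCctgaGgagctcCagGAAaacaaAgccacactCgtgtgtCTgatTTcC
Over these 90 bases Iglc1 differed from Iglc2 at 19 positions and from Iglc3 at 20, while Iglc2 and Iglc3 differed at 5. The assay reads transcript ends rather than these bases, so they do not show how well the counted reads tell the genes apart. The split between Iglc2 and Iglc3 is uncertain, so the lambda genes were counted together for the shares of cells.

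Most members had a light chain transcript, and many had both kinds. Igkc was detected in 82.1% (79.2 to 84.8) of members in the Control library, 90.1% (88.0 to 92.0) in the IR library and 85.1% (82.6 to 87.3) in the IR+CBD library. A lambda constant region (Iglc1 to Iglc4) was detected in 60.1% (56.5 to 63.7), 73.9% (70.9 to 76.7) and 65.4% (62.2 to 68.4). Both were found in the same cell in 44.8%, 64.4% and 51.3% of members, and neither in 2.53%, 0.329% and 0.877%. In neutrophils, at over 3 times the depth, 22.9% to 23.3% had an Igkc UMI and 7.11% to 7.79% a lambda UMI, which gauges what ambient RNA and doublets can add. The median member held 8.5, 14 and 10 Igkc UMIs (values in the order Control, IR and IR+CBD, here and throughout), against 0, 3 and 4 in surrogate light chain positive cells and 15, 19 and 16 in Rag-negative cells. The IR library was the highest of the 3 in each share of members with kappa, lambda or both.

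Cells were then thinned to 1500 UMIs each so that classes of unequal depth could be compared, with the classes assigned before thinning. At that depth, Igkc was detected in 73.8%, 83.2% and 78.2% of members and in 24.7%, 47.1% and 42.6% of surrogate light chain positive cells. Lambda was detected in 52.4%, 64.1% and 56.1% of members, and both in 34.99%, 52.8% and 38.9%. The IR share of members with both chains was above the Control and IR+CBD shares before and after thinning, with intervals that did not overlap. Because the IR library was 1 sample, its part in this difference cannot be told apart from that of irradiation.

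**Figure D3:**
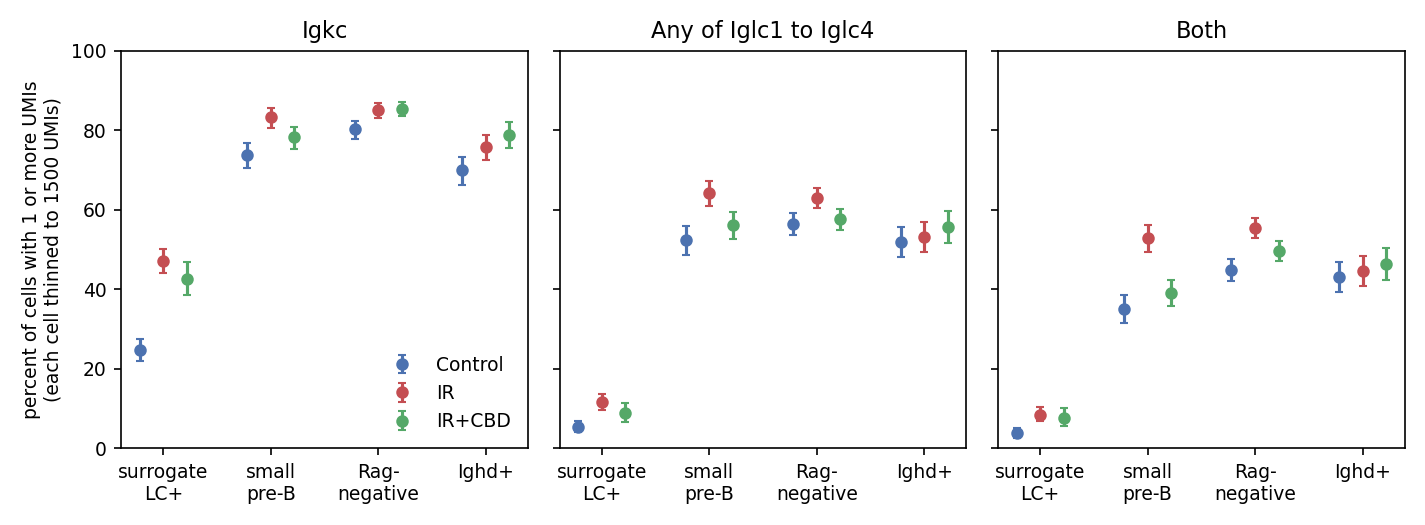
Percent of cells with at least 1 UMI of Igkc, of any of Iglc1 to Iglc4 and of both, after each cell was thinned to 1500 UMIs, by class and library. Points are shares and bars exact binomial intervals. Members (second class) lay far above surrogate light chain positive cells, and both chains were found in 34.99%, 52.8% and 38.9% of members (Control, IR, IR+CBD).

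Members with different light chain transcripts differed in other genes. Without the predicted doublets, 310, 532 and 416 members had kappa and lambda, 255, 211 and 279 kappa only, and 106, 78 and 122 lambda only. Mki67 stood at 451, 284 and 438 CPM in kappa-only members, at 95.01, 117 and 46.0 CPM in members with both chains, and at 9.53, 42.4 and 26.45 CPM in lambda-only members. Rag1, on which the rule itself selected, was 240, 247 and 274 CPM in kappa-only cells, 428, 387 and 499 CPM in cells with both, and 562, 517 and 602 CPM in lambda-only cells. Rag2, the other recombinase gene of the rule, was instead highest in kappa-only cells, at 67.6, 78.3 and 66.5 CPM. It was 33.1, 34.4 and 42.3 CPM in cells with both and 31.8, 42.4 and 32.3 CPM in lambda-only cells. Among these 3 states Mki67 was highest in kappa-only members in every library, and the members with no light chain were only 18, 2 and 8 cells. Cd2 followed the opposite order from Mki67, with 60.0, 65.1 and 66.5 CPM in kappa-only members and 206, 231 and 285 CPM in lambda-only members. Ms4a1 was at 2.28, 2.83 and 1.53 CPM in kappa-only members, 72.1, 76.55 and 97.9 CPM with both chains and 133, 120 and 129 CPM in lambda-only members. Il7r, the receptor for the growth cytokine interleukin-7, was higher in kappa-only members at 445, 376 and 376 CPM, against 250, 251 and 292 CPM with both chains and 197, 216 and 282 CPM in lambda-only members. These states also differed in depth, since median UMIs were 3842 to 4209 in kappa-only and 2443 to 2675.5 in lambda-only members, and the part of depth was not tested.

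Variable segments were captured rarely. An Igkv UMI was found in 26.1% (23.02 to 29.4), 28.1% (25.2 to 31.1) and 26.5% (23.7 to 29.5) of members, from 263, 364 and 344 UMIs in all, spread over 89 of 160 listed Igkv genes. Igkv1-110 had 29, 52 and 40 UMIs, Igkv1-117 had 37, 35 and 37, and Igkv1-135 had 26, 34 and 36. These 3 genes, of the Igkv1 family, lie 2.451, 2.601 and 3.112 megabases upstream of Igkj1 in GRCm38, at the distal side of the locus. Igkv1-35 followed with 12, 22 and 12 UMIs at 0.711 megabases, and Igkv12-46 with 14, 17 and 14 UMIs at 0.958 megabases. Among lambda segments, Iglv1 had 81, 94 and 278 UMIs, of which 186 in the IR+CBD library came from 1 cell. Iglv3 had 17, 37 and 31 UMIs and Iglv2 9, 21 and 16. Heavy chain segments had 139, 169 and 178 UMIs in all, spread so that the most frequent, Ighv1-82, had 6, 7 and 7. Ighv1-53 had 18 UMIs in the IR+CBD library, 17 of them in 1 cell.

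The next comparison asked which genes set members apart from surrogate light chain positive cells of the same libraries. UMIs were summed per library and class and tested with the edgeR quasi-likelihood test, with library as a block and the 7 rule genes left out. The test measures how evenly a difference recurred over the 3 libraries, which differ in treatment. Of 13258 genes, 2920 (22%) were higher in members and 3057 (23.1%) lower at an adjusted p under 0.05. Against Rag-negative cells, 1353 of 13500 genes (10%) were higher and 1421 (10.5%) lower. With shares of this size as background, membership in a count of called genes carries little by itself, and sizes are given.

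Iglc1 had the highest log2 difference of the leading genes, and the other light chain constant regions rose with it. Iglc1 stood at 757, 1028 and 968 CPM in members and at 30.6, 54.3 and 36.5 CPM in surrogate light chain positive cells (log2 difference 4.45, adjusted p = 4e-10). All 4 light chain genes tested were higher, with a median log2 difference of 3.89, where the median over all genes was 0.00112. Igkc stood at 1691, 2563 and 3188 CPM in members and at 313, 1226 and 609 CPM in surrogate light chain positive cells (1.89, adjusted p = 2.9e-05). Rag-negative cells held 7634, 7631 and 5033 CPM of Igkc (-1.51, adjusted p = 8.1e-05), while their Iglc1 level of 783, 1096 and 1005 CPM did not pass the test (-0.10, adjusted p = 0.051). The Igkc sums rested partly on few cells, since the 20 highest Rag-negative cells held 65.3%, 57.4% and 34.4% of the class's Igkc UMIs and 1 surrogate light chain positive cell of the IR library held 7158 of 16881. Without the predicted doublets of both classes the difference from Rag-negative cells was -0.69. Ighm, the mu heavy chain, was higher in members than in surrogate light chain positive cells (2298, 2455 and 2590 against 1167, 1143 and 1177 CPM, 1.01, adjusted p = 8.5e-08).

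Surface markers of the small pre-B stage rose with them. Il2ra stood at 71.1, 86.3 and 76.1 CPM in members, at 6.06, 10.9 and 9.60 CPM in surrogate light chain positive cells (3.09, adjusted p = 1.6e-08) and at 31.8, 43.8 and 39.4 CPM in Rag-negative cells (0.99, adjusted p = 8.3e-07). Members were the highest of the 3 classes in every library. Cd2, an adhesion molecule, stood at 78.7, 82.3 and 91.2 CPM in members against 5.53, 7.84 and 7.40 CPM (3.53, adjusted p = 5.9e-09) and 47.0, 57.5 and 58.5 CPM (0.59, adjusted p = 3e-05). Of 20 cytokine and homing receptors tested against surrogate light chain positive cells, 13 were higher and 4 lower, with a median of 0.78. Il7r was higher than in either class (0.65, adjusted p = 5e-06, and 0.72, adjusted p = 7.4e-06), as was Cxcr4, the receptor that holds B cell precursors in the marrow (1.01, adjusted p = 4.7e-07, and 0.34, adjusted p = 0.0016). The 4 that were lower were Kit, Cxcr5, Itga4 and Cd24a, of which Cd24a lost its call in thinned cells, Kit without the IR library and Cxcr5 without the IR or the IR+CBD library. Against Rag-negative cells 8 of 22 were higher and 7 lower, the latter led by Ms4a1 at 31.1, 39.0 and 42.5 CPM in members and 248, 229 and 279 CPM in Rag-negative cells (-2.78, adjusted p = 3.1e-10).

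Cell cycle genes were lower in members. All 43 S phase genes were lower than in surrogate light chain positive cells, with a median of -0.95, and 50 of 52 G2/M genes, with a median of -0.62. The S phase difference held in members of at most 8000 UMIs, where 39 of 43 were lower, but the G2/M difference did not, with 6 higher, 8 lower and a median near 0. Against Rag-negative cells 28 of 43 S phase genes were lower and 0 higher (median -0.26), while 5 of 52 G2/M genes were higher and 1 lower.

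Genes of the recombination machinery split. Of 15 tested against surrogate light chain positive cells, 6 were higher and 8 lower, and the median of -0.22 turned to 0.12 in thinned cells. Dclre1c (Artemis, which opens the coding hairpins) was higher in members at 74.1, 64.6 and 68.6 against 39.8, 36.7 and 33.6 CPM (0.84, adjusted p = 7.4e-06). Xrcc6 (Ku70) and Lig4 (DNA ligase IV), which bind and seal the ends, were both higher by 0.64 (adjusted p = 5.5e-05 and 0.00016). In cells of at most 8000 UMIs both calls were lost (Xrcc6 0.08, adjusted p = 0.44, and Lig4 0.10, adjusted p = 0.63), and 3 of the list were higher, Dclre1c, Nhej1 and Polm, and 5 lower. The 8 lower genes included Hmgb1, Hmgb2 and Dntt, the enzyme that adds untemplated bases (-2.35, adjusted p = 4.7e-06). Against Rag-negative cells 5 of 15 were higher and 0 lower. They were Dntt, Xrcc6 (0.82, adjusted p = 5.6e-07), Lig4 (0.68, adjusted p = 0.00019), Polm, a polymerase of end joining, and Dclre1c (0.22, adjusted p = 0.025), whose call was lost in thinned cells and without any 1 library. Dntt was carried by few members, with UMIs in 49, 17 and 15 of them.

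Transcription factors linked to light chain locus activation were higher in members than at the preceding stage. In a list of 14 such regulators and stage markers tested, 12 were higher and 1, Bcl6, was lower, with a median of 1.33. Irf4, which opens light chain enhancers, stood at 160, 168 and 185 CPM against 52.3, 72.8 and 73.3 CPM (1.31, adjusted p = 2.3e-07). Ikzf3 (Aiolos) was higher by 1.99 (adjusted p = 9.7e-09), Spib by 1.79 (adjusted p = 7.7e-09), Brwd1, a chromatin reader at the kappa locus, by 1.75 (adjusted p = 2.9e-08) and Foxo1, an activator of the Rag genes, by 0.94 (adjusted p = 3.1e-07). Against Rag-negative cells 8 of the 14 were higher, Irf4 by 0.52 (adjusted p = 1.3e-05) and Foxo1 by 0.42 (adjusted p = 6.5e-05), and Irf8 and Ms4a1 were lower, while Ikzf3 (-0.04, adjusted p = 0.60) and Spib (-0.05, adjusted p = 0.55) did not pass the test. Of 27 B lineage factors, 15 were higher and 8 lower than in surrogate light chain positive cells. Erg, an ETS factor of progenitors, was among the lower ones at 28.1, 20.4 and 23.96 against 143, 132 and 118 CPM (-2.51, adjusted p = 1e-08).

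Signaling and survival genes followed. Syk, the kinase that relays the receptor signal, stood at 690, 582 and 655 CPM in members, 218, 221 and 216 CPM in surrogate light chain positive cells (1.49, adjusted p = 1.3e-08) and 452, 385 and 466 CPM in Rag-negative cells (0.53, adjusted p = 2.9e-06). Blnk, its adaptor, was also higher than in both (0.30, adjusted p = 0.00096, and 0.63, adjusted p = 9.4e-07), the former lost in cells of at most 8000 UMIs (0.08, adjusted p = 0.23). Of 21 receptor signaling genes, 11 were higher and 4 lower than in surrogate light chain positive cells. Vpreb2 was 1 of the 4, but it is nearly identical to the rule gene Vpreb1 and its change is not independent of the rule. Bcl2l1 (Bcl-xL), a survival gene, stood at 104, 101 and 99.3 CPM in members against 30.3, 38.7 and 38.1 CPM (1.44, adjusted p = 4e-07) and 48.3, 51.3 and 65.4 CPM (0.85, adjusted p = 1.5e-05). In the BCL2 family 6 of 12 genes were higher than in surrogate light chain positive cells and 3 lower (Bax, Bak1 and Bad), of which Bax and Bak1 lost their calls in thinned cells.

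Cd74 and most other MHC class II genes were lower in members than in Rag-negative cells. Cd74, the invariant chain of MHC class II, stood at 43.8, 90.6 and 85.1 CPM in surrogate light chain positive cells, 167, 352 and 278 CPM in members and 679, 924 and 971 CPM in Rag-negative cells (1.80, adjusted p = 1e-08, and -1.77, adjusted p = 9.4e-08). Of 11 class II genes, 7 were higher than in the former and 0 lower (median 0.53). Against Rag-negative cells 9 were lower and 1, H2-Ob, higher (median -0.85). H2-Ob was also among the 7, but in cells of at most 8000 UMIs it was lower than in surrogate light chain positive cells (-0.33, adjusted p = 0.025) and its call against Rag-negative cells was lost (-0.08, adjusted p = 0.57), and the first count became 5 higher and 2 lower. Of 18 MHC class I genes, 6 were higher and 5 lower than in surrogate light chain positive cells (median -0.03), and 3 higher and 6 lower than in Rag-negative cells, with H2-Q4, H2-Q6 and H2-Q7 higher than in both. Immediate early genes, which respond to acute signals and to cell handling, were higher in members than in surrogate light chain positive cells for 24 of 26 genes (median 0.63) and than in Rag-negative cells for 15 of 27, with 2 lower. In cells of at most 8000 UMIs the former count was 14 higher and 4 lower (Egr1, Ier2, Atf3 and Socs3) with a median of 0.35, and Egr1 and Ier2 had turned from higher to lower.

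Genes outside these lists also led. Reln, which encodes the secreted protein reelin, stood at 97.5, 74.3 and 73.0 CPM in members, 2.69, 5.45 and 2.60 CPM in surrogate light chain positive cells (4.403, adjusted p = 5.7e-08) and 33.9, 39.0 and 26.3 CPM in Rag-negative cells (1.26, adjusted p = 2.1e-06). Reln was thus highest in members in all 3 libraries. Agbl1, a carboxypeptidase gene, was higher than in surrogate light chain positive cells by 4.02 (adjusted p = 9.7e-09) and did not differ detectably from Rag-negative cells (0.02, adjusted p = 0.84). Cacna1e, a calcium channel subunit, stood at 373, 433 and 485 CPM in members and 150, 221 and 232 CPM in Rag-negative cells (1.08, adjusted p = 1.3e-07). Mast4, Carmil1, Sorcs2, Nav2, Gm8369 and 2610307P16Rik completed the leading genes against Rag-negative cells, each higher by 0.93 to 1.05, and Adam19, 2010309G21Rik and Tmem163 those against surrogate light chain positive cells. The genes that fell furthest from the surrogate light chain positive level were, beside Vpreb2, Gfra2 (-3.58, adjusted p = 8.6e-09), Arpp21 (-3.39, adjusted p = 1.8e-06) and Bfsp2 (-3.10, adjusted p = 1.2e-09), followed by Ust, Erg, Myl10, Dntt, Crip1 and Rapgef5. Below the Rag-negative level, after Ms4a1 and Cd74, came Btla (-1.74, adjusted p = 2.3e-07) and Bank1 (-1.61, adjusted p = 2.2e-09), an inhibitory receptor and an adaptor of mature B cells, then Igkc, H2-Eb1, Ifi30, Fcmr, Ptpn6 and Scd1. Neutrophil and granule genes moved too, 9 of 12 being higher in members than in surrogate light chain positive cells and 7 of 12 lower than in Rag-negative cells, and their part in these differences was not tested. The classes also differed in depth, and in cells thinned to 3000 UMIs each of the 40 leading genes kept its direction and its call. Classes were assigned before thinning, and shallower cells were left out, which kept 466, 583 and 477 members. The part of depth in placing a cell in a class was therefore not tested.

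**Figure D4:**
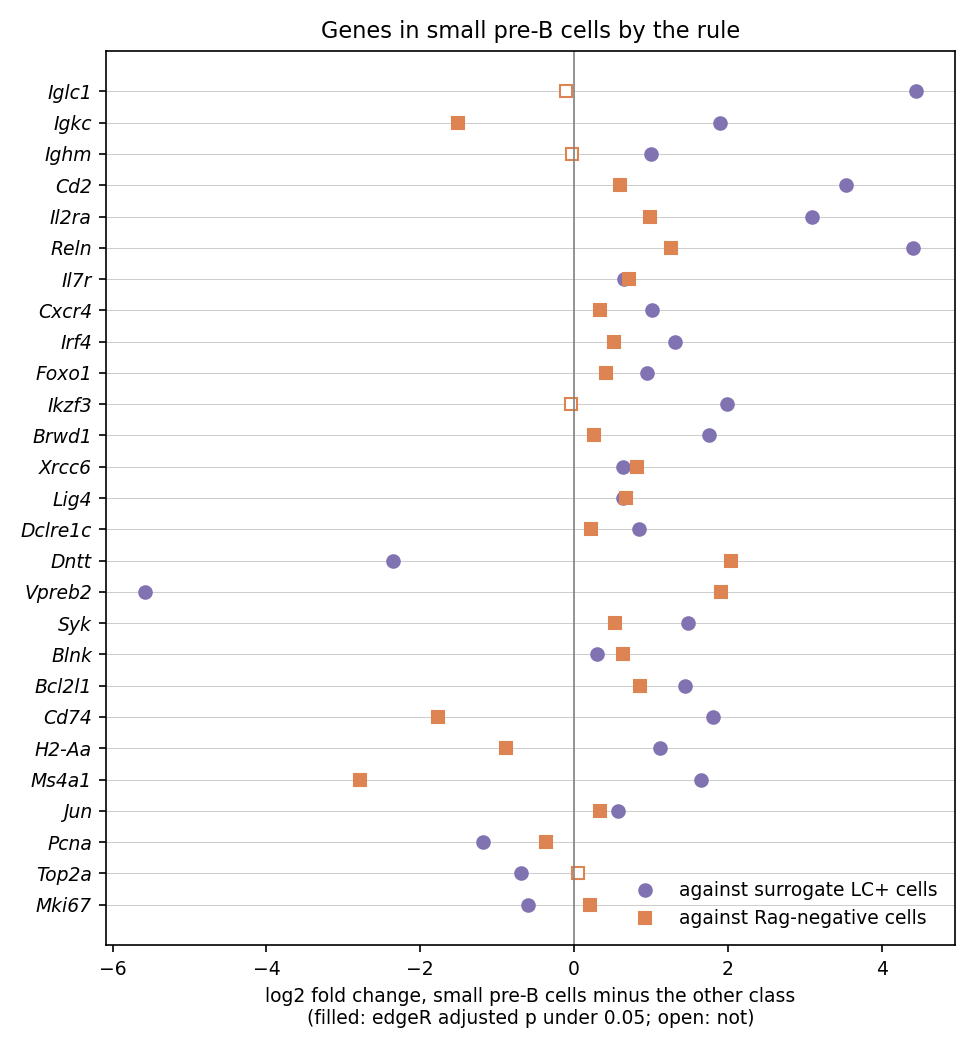
Log2 difference between members and surrogate light chain positive cells (circles) and between members and Rag-negative cells (squares) for 27 genes of the lists and leading genes. Filled symbols passed the edgeR test at an adjusted p under 0.05. Iglc1, Cd2, Il2ra and Reln rose by over 3 against the former class, and Ms4a1 and Cd74 lay between both classes.

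Between libraries, a gene was called where its CPM over all members differed by more than 1.5 times. IR over Control called 507 of 10466 genes with at least 50 UMIs as higher (4.84%) and 526 as lower (5.03%). IR+CBD over IR called 287 of 10513 as higher (2.73%) and 301 as lower (2.86%). IR+CBD over Control called 355 of 10288 as higher (3.45%) and 383 as lower (3.72%). Without the predicted doublets the split changed for IR over Control, with 366 of 9136 genes higher and 599 lower, of which 230 and 262 had been called with them, and was 347 and 373 of 9068 for IR+CBD over IR and 245 and 447 of 8960 for IR+CBD over Control. The first and second comparisons share the IR library, so a deviation of that library alone gives opposite values in them.

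Interferon response genes were higher in the IR members than in those of the other libraries. Ifi27l2a, an interferon-induced mitochondrial protein, stood at 205 CPM in Control, 1915 CPM in IR and 359 CPM in IR+CBD members, an IR to Control ratio of 9.36 (8.76 to 10.0) and an IR+CBD to IR ratio of 0.188 (0.179 to 0.197). It was detected in 39.7%, 93.1% and 48.4% of members. Isg15, a ubiquitin-like protein, stood at 8.04, 52.8 and 13.3 CPM, a ratio of 6.56 (4.68 to 9.45) for IR over Control. Rtp4 stood at 6.77, 50.2 and 5.80 CPM, with 32, 296 and 30 UMIs. Usp18, which removes Isg15 from its targets, had 4, 109 and 12 UMIs, and Iigp1, an interferon-induced GTPase, 2, 69 and 5. Ifi44 had 6, 51 and 1 UMIs. The IR library was the highest for each of these 6 genes, and the IR+CBD level lay nearer to the Control level than to the IR level in each.

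Of 48 interferon genes with at least 20 UMIs, 47 were higher in IR than in Control members and 39 exceeded 1.5 times, with a median log2 ratio of 1.40 against -0.04 over all genes. From IR to IR+CBD 48 of 48 were lower and 37 by more than 1.5 times, with a median of -1.10 against 0.03. Over all genes with as many UMIs, 832 of 12600 were past 1.5 times higher in the former and 600 of 12676 lower in the latter. Without the predicted doublets the medians were 1.47 and -1.33. In single members thinned to 1500 UMIs, the list gave a median of 3 UMIs per cell in the Control library, 8 in the IR library and 3 in the IR+CBD library. Cells with none were 4.69% (3.23 to 6.56), 0.367% (0.0758 to 1.07) and 5.54% (4.07 to 7.35). The same list rose in the other classes of the IR library too, with medians of 1.20 in surrogate light chain positive, 1.52 in Rag-negative, 1.19 in Ighd-positive cells and 1.55 in neutrophils, and it was not particular to small pre-B cells.

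Promoters of 3 genes of the interferon list are shown. The 3 were picked from genes with a match to the motif given below, so they do not stand for the list. They come from RefSeq (GRCm38.p6), run in the direction of transcription and end before the start site, with capitals at matches to GAAANNGAA or its reverse complement TTCNNTTTC, the core repeat bound by interferon regulatory factors, overlapping matches included. The Isg15 window is chr4:156200851-156200921 on the minus strand, that of Ifi213 chr1:173599312-173599370 on the minus strand and that of Ifit3 chr19:34583349-34583460 on the plus strand.
Isg15: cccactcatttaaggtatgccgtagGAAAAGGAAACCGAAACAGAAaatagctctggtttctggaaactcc
Ifi213: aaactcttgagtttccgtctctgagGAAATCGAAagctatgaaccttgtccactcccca
Ifit3: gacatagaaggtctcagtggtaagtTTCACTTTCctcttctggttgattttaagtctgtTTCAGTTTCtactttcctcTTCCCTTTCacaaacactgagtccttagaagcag
A match stood within 300 bases around the start in 24 of 37 interferon list genes with a promoter in the table (64.9%), in 4 of 16 MHC class I genes (25%), in 2812 of 32851 promoters overall (8.56%) and in 2 of 46 G2/M genes (4.35%). The list was made of known interferon response genes, so its share describes the list and is no result about these cells. The lists kept 1 promoter per gene, while the overall share counted every promoter. In members, Ifi213 stood at 5.71, 43.3 and 6.38 CPM and Ifit3 had 1, 45 and 9 UMIs.

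MHC class I genes moved the same way by less. B2m, the class I light chain, stood at 1149, 1935 and 1291 CPM, a ratio of 1.68 (1.63 to 1.74) for IR over Control. H2-K1 stood at 553, 1024 and 615 CPM, and H2-Q7 at 135, 443 and 197 CPM. Of 18 genes, 15 were higher in IR than in Control (median 0.55) and 17 lower in IR+CBD than in IR (median -0.50). Without the predicted doublets the IR over Control median was 0.48 in members. It was 0.58 in surrogate light chain positive, 0.64 in Rag-negative, 0.60 in Ighd-positive cells and 0.76 in neutrophils. The rise was thus not particular to small pre-B cells. Of 11 class II genes, 7 were higher in IR than in Control and 4 lower, 3 of them past 1.5 times higher (median 0.48), and from IR to IR+CBD 3 were higher and 8 lower (median -0.29). Cd74 had an IR to Control ratio of 2.10 (1.94 to 2.29) and an IR+CBD to IR ratio of 0.792 (0.740 to 0.847).

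Light chain constant regions were also higher in the IR members. Iglc2 stood at 423, 831 and 764 CPM, a ratio of 1.96 (1.86 to 2.07) for IR over Control, and Iglc1 had a ratio of 1.36 (1.30 to 1.42). The Iglc2 interval does not cover the uncertain split between Iglc2 and Iglc3. All 4 genes were higher (median 0.57). Igkc had a ratio of 1.52 (1.48 to 1.56) for IR over Control. Between IR+CBD and IR it was 1.24 (1.22 to 1.27) over all members and 0.807 (0.786 to 0.829) without the predicted doublets, because 1 IR+CBD member held 5250 Igkc UMIs together with 1948 of Igha. By the median cell, the IR library was also highest in Rag-negative cells. These held 15, 19 and 16 Igkc UMIs and 3, 6 and 3 lambda UMIs, so the IR level was not particular to small pre-B cells. Not every class shared this order. Surrogate light chain positive cells had Igkc medians of 0, 3 and 4, and Ighd-positive cells had lambda medians of 4, 3 and 3.

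Cell cycle genes went the other way. Of 52 G2/M genes, 48 were lower in IR than in Control members (median -0.33, and -0.55 without the predicted doublets) and 49 higher in IR+CBD than in IR (median 0.26, and 0.39 without them). The list was also lower in the other classes of the IR library, by less. Without the predicted doublets its medians were -0.26 in surrogate light chain positive, -0.19 in Rag-negative, -0.24 in Ighd-positive cells and -0.27 in neutrophils. Mki67 stood at 236, 176 and 225 CPM and Top2a, the DNA topoisomerase of dividing cells, at 391, 304 and 374 CPM. In single members thinned to 1500 UMIs the median cell held 4, 3 and 3 G2/M UMIs while the 90th percentile was 32, 16 and 28.9, so the difference lay in the upper tail. The S phase median for IR over Control was 0.08 and turned to -0.16 without the predicted doublets, so no direction is given for it. The recombination machinery had medians of -0.20 and 0.16, against -0.04 and 0.03 over all genes with at least 50 UMIs. Of its 15 genes, 14 were lower in IR than in Control and 0 were past 1.5 times higher. Only 4.84% of all genes with at least 50 UMIs were past 1.5 times higher, so that 0 carries little by itself. The count of 14 covers differences of any size, and no share of all genes that were lower stands beside it. The p53 targets, which respond to DNA damage, had medians of -0.04 and 0.22, and Cdkn1a, the p21 cell cycle inhibitor, stood at 62.4, 30.9 and 38.3 CPM.

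Several genes that led these comparisons by size were carried by single members. Prg2 and Epx, eosinophil granule genes, had 932 and 115 UMIs in the IR members, of which 745 and 106 came from 1 cell each. Prss34 and Mcpt8, basophil proteases, had 502 and 427 UMIs in the Control members, 488 and 386 of them in 1 cell each. Jchain and Igha, genes of IgA plasma cells, had 1222 and 1994 UMIs in the IR+CBD members, 1182 and 1948 in 1 cell each. For Ccl5, Hbb-bs and Cstdc4 the 5 highest cells held nearly all UMIs in the library where the gene was highest, namely 99.1%, 97.5% and 95.1%. The values of these genes describe single cells that met the rule rather than the members at large. Slc15a2, a peptide transporter, was different. It had 118, 18 and 190 UMIs, at most 4 in a cell, and was found in 13.6%, 1.75% and 15.5% of members, with an IR to Control ratio of 0.122 (0.0701 to 0.202) and an IR+CBD to IR ratio of 12.0 (7.40 to 20.7). The remaining leading genes of the first and second comparisons were Wfdc17 and 9030619P08Rik, lower in IR than in Control, and Ly6a, lower in IR+CBD than in IR, and 63.5%, 50.7% and 81.5% of the Wfdc17 UMIs came from 5 cells.

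**Figure D5:**
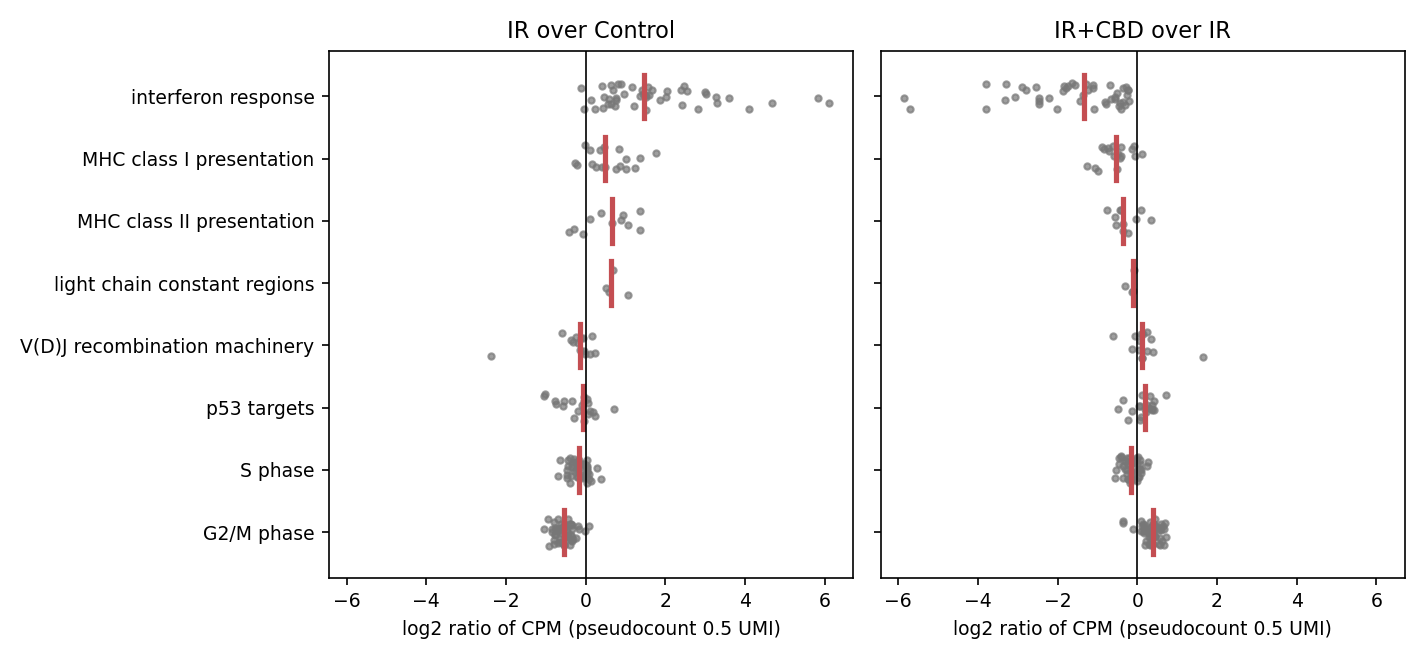
Log2 ratio of CPM between libraries for the genes of 8 lists with at least 20 UMIs, over members without the predicted doublets. Each point is a gene and each red bar a list's median. The interferon list had a median of 1.47 for IR over Control and -1.33 for IR+CBD over IR, and the G2/M list of -0.55 and 0.39, and both panels share the IR library.

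Erythroid genes also differed between libraries, in another order with the predicted doublets than without them. The 10 erythroid genes summed to 473, 1123 and 1819 CPM over all members and to 76.4, 436 and 214 CPM without the predicted doublets, and their part in the library differences was not tested. Dntt stood at 167, 42.4 and 78.1 CPM, a ratio of 0.254 (0.219 to 0.293) for IR over Control, but the 5 highest cells held 44.6%, 86.0% and 94.3% of its UMIs.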

How the data were processed

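The deposited files held UMI counts per gene and cell barcode from 3 libraries, 1 per condition (3′ kit per the labels). The submitters' processing notes named Cell Ranger 4.0 and build GRCm39, while the matrix headers named Cell Ranger 7.0.1. The counts were used as the authors deposited them. Cells had at least 200 genes and at most 5% mitochondrial UMIs, which left 173466089 to 202361682 UMIs per library, and 4726477, 5894833 and 5176014 in members. Doublets were predicted per library from Scrublet scores in scanpy 1.11.5 and kept in the main values. The highest scores were taken up to an assumed rate of 0.8% per 1000 cells, which gave 911, 856 and 844 cells. Intervals were Clopper-Pearson for shares and conditional binomial (exact) for ratios. Classes were compared over 6 UMI sums per test with edgeR 4.0.16 (quasi-likelihood, TMM, library as block, Benjamini-Hochberg over all genes) in R 4.3.3, tested first on simulated data. List medians used log2 ratios with a pseudocount of 0.5 UMI. Positions came from GENCODE M21 (GRCm38) by Ensembl ID. The members and the 21 gene lists were chosen with earlier results of these data known. Leading genes were the 10 highest and 10 lowest by log2 difference among those called, of 1 direction in all 3 libraries and at least 50 CPM in the higher class, and between libraries the 6 highest and 6 lowest by the bound of the ratio nearest to 1. Alternatives included DESeq2 1.42.0, other filters and scalings, thinning to 3000 UMIs and leaving out each library. A limit of 8000 UMIs and thinning to 1500 UMIs were added after seeing the data.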

Additional observations from a re-analysis of the deposited data

Results flagged for a closer look

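Barcodes outside the filters on gene number and mitochondrial UMIs entered no comparison, yet some of them met the UMI rule for small pre-B cells, more often than in the Control library. They were 22 of 1526 such barcodes in the Control library (1.44%, interval 0.906 to 2.17), 73 of 1606 in the IR library (4.55%, 3.58 to 5.68) and 46 of 1611 in the IR+CBD library (2.86%, 2.10 to 3.79). The ratio to the Control library was 3.15 (1.93 to 5.34) for IR and 1.98 (1.17 to 3.46) for IR+CBD, counting error only. No group held 4 or more samples, so no sample could be set apart from others of its group.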

How the results depend on the processing

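The share of members among all cells depended on the rule. It was 3.76%, 4.81% and 4.22% (Control, IR, IR+CBD) when the rule was applied after thinning to 3000 UMIs, where the IR+CBD to IR ratio was 0.876, and 2.92%, 3.65% and 3.72% with at least 2 Rag UMIs. Among cells of at most 8000 UMIs it was 16.0%, 20.3% and 20.7%, and with 1 surrogate light chain UMI allowed it was 9.51% in the IR library. At 1500 UMIs the shares of members with kappa, lambda and both were 73.8%, 52.4% and 34.99% in Control, 83.2%, 64.1% and 52.8% in IR, and 78.2%, 56.1% and 38.9% in IR+CBD. With at least 2 light chain UMIs they were 78.0%, 51.6% and 32.9%, then 87.8%, 64.9% and 53.5%, then 79.3%, 56.5% and 37.4%. Thinning to 3000 UMIs, which leaves out shallower cells, gave lambda in 39.3%, 59.3% and 41.9%, both in 29.4%, 51.1% and 34.4%, and kappa in 89.1% of IR+CBD members, and lambda was found in 63.9% of Control members of at most 8000 UMIs.

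Genes past 1.5 times higher in IR than in Control were 301 in thinned members, with 404 lower, and 309 of at most 8000 UMIs, with 489 lower (507 and 526 as reported). Only 122 and 118 of the thinned calls, and 154 and 148 at most 8000 UMIs, were among those reported. Those higher in IR+CBD than in IR were 393 thinned, with 250 lower, and 471 of at most 8000 UMIs, with 267 lower (287 and 301 as reported). Here 63 and 58 of the thinned calls, and 124 and 101 at most 8000 UMIs, were among those reported. Most called genes thus changed with the setting. For IR over Control, the log2 ratio of Epx went from 3.63 to -1.57 without the predicted doublets and to -1.44 at most 8000 UMIs, and that of Mcpt8 from -3.83 to 0.14 and 0.047, both carried by 1 cell. The S phase median for IR over Control was -0.16 without the predicted doublets, -0.26 thinned and -0.31 at most 8000 UMIs, and for IR+CBD over IR it was 0.15 thinned and 0.22 at most 8000 UMIs, against -0.19 as reported. The G2/M median was -0.55, -0.56 and -0.62 for IR over Control and 0.39, 0.56 and 0.70 for IR+CBD over IR under the same 3 settings. The immediate early median was -0.17 for IR over Control as reported and 0.095, 0.082 and 0.18 under them, and 0.14 for IR+CBD over IR, which went to -0.0028 thinned and 0.070 at most 8000 UMIs. The cause was not tested.

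Against surrogate light chain positive cells DESeq2 called 1710 genes higher and 1904 lower, the 8000 UMI limit 1781 and 1992, and leaving out each library 2264 to 2484 and 2476 to 2720. Against Rag-negative cells DESeq2 called 588 and 574, thinning 766 and 752, the 8000 UMI limit 863 and 860, and the fit with no library block 230 and 119. Leaving out each library gave 725 to 1224 higher and 594 to 1249 lower, lowest without the Control library. Of the values for leading genes of both tests 396 kept direction and call, and 3 (Dntt, Gm8369 and Nav2 against Rag-negative cells, without the library block) kept direction only. Of other genes named against Rag-negative cells, Cxcr4, Foxo1, Brwd1, Irf8, Dclre1c and H2-Ob also lost their calls without the block. Of other values and counts, 219 kept their size and 70 moved.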

Other observations

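Some genes outside the lists also differed between libraries. Agbl1, which rose at the small pre-B stage, stood at 297, 136 and 196 CPM in Control, IR and IR+CBD members, an IR to Control ratio of 0.454 (0.413 to 0.499) and an IR+CBD to IR ratio of 1.51 (1.36 to 1.67) without the predicted doublets. Rag-negative cells held 295, 141 and 170 CPM of it, the same order. Nav2, a neuron navigator gene, went the other way at 96.9, 175 and 142 CPM, and so did Gm8369 at 103, 225 and 148 CPM. Bank1 stood at 63.7, 40.0 and 60.3 CPM. Slc15a2 had the same order in Rag-negative cells (16.9, 1.52 and 24.99 CPM) as in members (24.97, 3.05 and 36.7 CPM). The libraries were 1 per condition, so these values carry no test between conditions.

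Without the predicted doublets, Fosb, an immediate early factor, stood at 35.4, 12.0 and 48.1 CPM, an IR to Control ratio of 0.338 (0.231 to 0.487) and an IR+CBD to IR ratio of 4.02 (2.84 to 5.81), while the immediate early list as a whole had medians of 0.095 and 0.15. This gene was singled out after its values were seen.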
